A study of Mus musculus with 16 samples.

Results

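The collagen genes of embryonic lower urinary tract mesenchyme are described here across 4 groups of libraries. Of 55228 gene symbols in the count table, 44 had a symbol of the collagen pattern (Col, a type number, a, a chain number), and 43 of them had a mean of at least 0.5 CPM (counts scaled to the size of the library) over the 16 libraries and form the set. The symbol left out was Col10a1, the short-chain collagen of growth cartilage, at a mean of 0.411 CPM on library totals. The member nearest above the limit was Col22a1 at 1.80 CPM on the same scale. All 43 members passed the filter on low counts. By the shape of the assembled protein they fall into 11 fibrillar genes, 9 fibril-associated genes with interrupted helices (FACIT), 6 of the basement membrane network, 6 of beaded filaments, 4 transmembrane, 2 short-chain network, 2 multiplexin, 1 anchoring fibril and 2 other genes.

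Collagens are matrix proteins whose chains wind around each other into a stiff helix, and many are built from chains of several genes. Fibrillar collagens form the load-bearing fibres of connective tissue, type IV collagen forms the sheet under epithelia and around muscle and vessels, and type VI collagen forms fine filaments around cells. In the bladder wall, collagen fibres between muscle bundles let the organ stretch and limit how far it does so.

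The tissue came from wild-type CD-1 mouse embryos, an outbred stock, at embryonic day 16.5, and no further treatment was given. Mesenchyme of the bladder and of the pelvic urethra was taken from each sex, which makes 4 groups with 4 libraries each. Epithelium had been loosened with 1% trypsin on ice for 90 minutes and parted from the mesenchyme with forceps. Females and males of a litter were pooled apart, so a library stands for a pool of embryos, and each of 4 litters gave 1 library to each group. The series was designed to find genes that mark a compartment of the developing bladder and urethra.

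Library totals were 18577097 to 22293812 counts in the bladder and 24447435 to 29698009 in the urethra, so depth went with tissue. Markers of other cell types stood at unequal levels in the 2 tissues. Epithelium markers summed to 2128 to 5258 CPM in the bladder and 689 to 2449.5 CPM in the urethra, and their mean log2 CPM, called the epithelium score below, was lowest in female urethra replicates 3 (5.80) and 4 (5.10). By the edgeR quasi-likelihood test, 10 of 10 smooth muscle and 7 of 8 mesothelium markers were lower in the urethra. Higher were 12 of 13 skeletal muscle, 10 of 10 neuron, 9 of 9 glia and 9 of 9 endothelium markers. Mixed lists were fibroblast (5 higher and 3 lower of 9), pericyte (3 and 3 of 6) and immune (3 and 2 of 8) markers. Tendon (3 and 2 of 5), bone (5 and 1 of 7) and epithelium (2 and 10 of 15) markers were also mixed. Of all genes tested, 36.5% were higher and 38.5% lower by the same test. In bulk tissue, fewer cells of a type and less RNA per cell cannot be told apart.

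The 43 genes together took 2.09 to 2.80% of all counts in the bladder (2.32 ± 0.244%, SD, n = 8) and 1.61 to 1.91% in the urethra (1.79 ± 0.114%, SD, n = 8), without overlap. Col1a1, Col1a2 and Col3a1 made up most of that share in the bladder and a smaller part of it in the urethra. Without them it was 0.707 to 1.07% in the bladder and 0.738 to 0.927% in the urethra, and the ranges overlapped. As a share of summed CPM per kb, where counts are divided by gene length, the 43 genes took 0.798 to 1.18% in the bladder and 0.690 to 0.897% in the urethra, and these ranges overlapped too.

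To compare levels between genes, CPM were divided by the annotated exon length in kilobases. Col1a1, the main chain of type I collagen of bone, tendon and skin, had the highest mean over all libraries at 638 CPM per kb. Col3a1, the collagen of fine fibres in hollow organs, followed at 473 CPM per kb, and Col1a2, the partner chain of Col1a1, at 278 CPM per kb. Next came Col6a1 of the beaded filaments (190.2 CPM per kb), Col4a1 of the basement membrane (131 CPM per kb) and Col5a1, a type V chain found inside type I fibrils (107 CPM per kb). Per length, Col1a1 stood above Col3a1 in the bladder, at 881 against 569.5 CPM per kb. In the urethra they stood at 395 and 377 CPM per kb. Without division by length, Col1a1 and Col3a1 stood at 5781 and 5590 CPM in the bladder and at 2593 and 3700 CPM in the urethra. The order of genes of similar level thus depends on the annotated exon length. The lowest members were the FACIT genes Col19a1 (0.332 CPM per kb) and Col22a1 (0.192 CPM per kb).

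**Figure D1:**
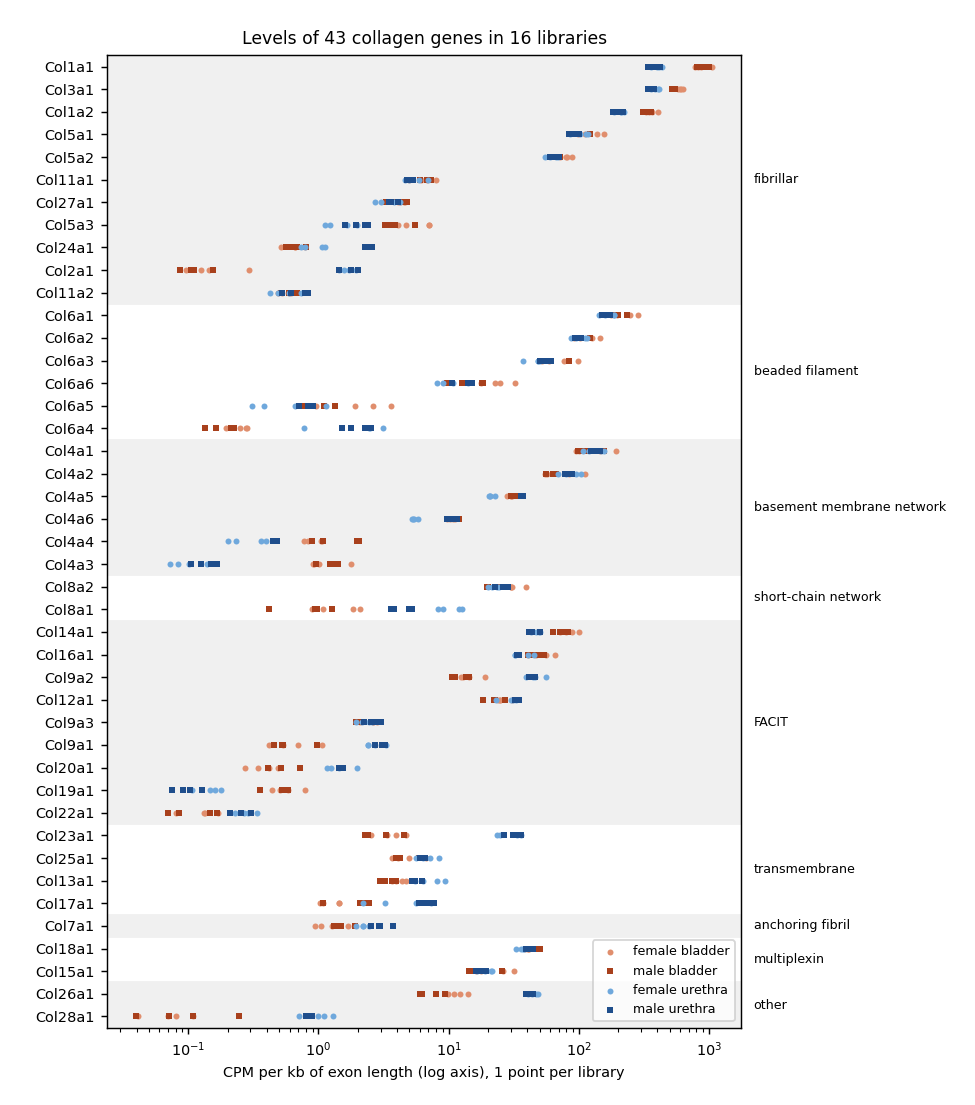
Level of each of the 43 collagen genes in each of the 16 libraries, as CPM per kb of exon length on a log axis, with 1 point per library and genes grouped by class. Means run from 638 CPM per kb for Col1a1 to 0.192 for Col22a1, and bladder and urethra points stand far apart for low genes such as Col2a1, Col28a1, Col6a4 and Col4a3.

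The comparison of urethra with bladder, as the mean of both sexes, asks which collagen genes mark a compartment. In the urethra 16 members were higher and 19 lower, and 8 were not called (edgeR quasi-likelihood test, Benjamini-Hochberg adjusted p under 0.05 over 18254 genes). The called members came to 81.4%, close to the 75.0% called among all genes tested, of which 36.5% were higher and 38.5% lower. At least 2-fold changes were called for 12 members in the higher and 6 in the lower direction, 41.9% of the members, where 22% of all genes were called at that size. The median log2 fold change was −0.13 over the members and −0.03 over all genes. The 8 libraries of each tissue did not overlap for 20 members, 12 higher and 8 lower in the urethra, which is 46.5% against 42.3% of all genes. Scaling by library totals alone moved the median of all genes to 0.11 and the share of higher genes among those called from 48.7 to 60.8%. Under that scaling the small decreases of Col5a2, Col6a3, Col11a1, Col27a1, Col18a1 and Col4a5 were no longer called, Col4a2 was called higher, and no called member was called in the opposite direction.

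**Figure D2:**
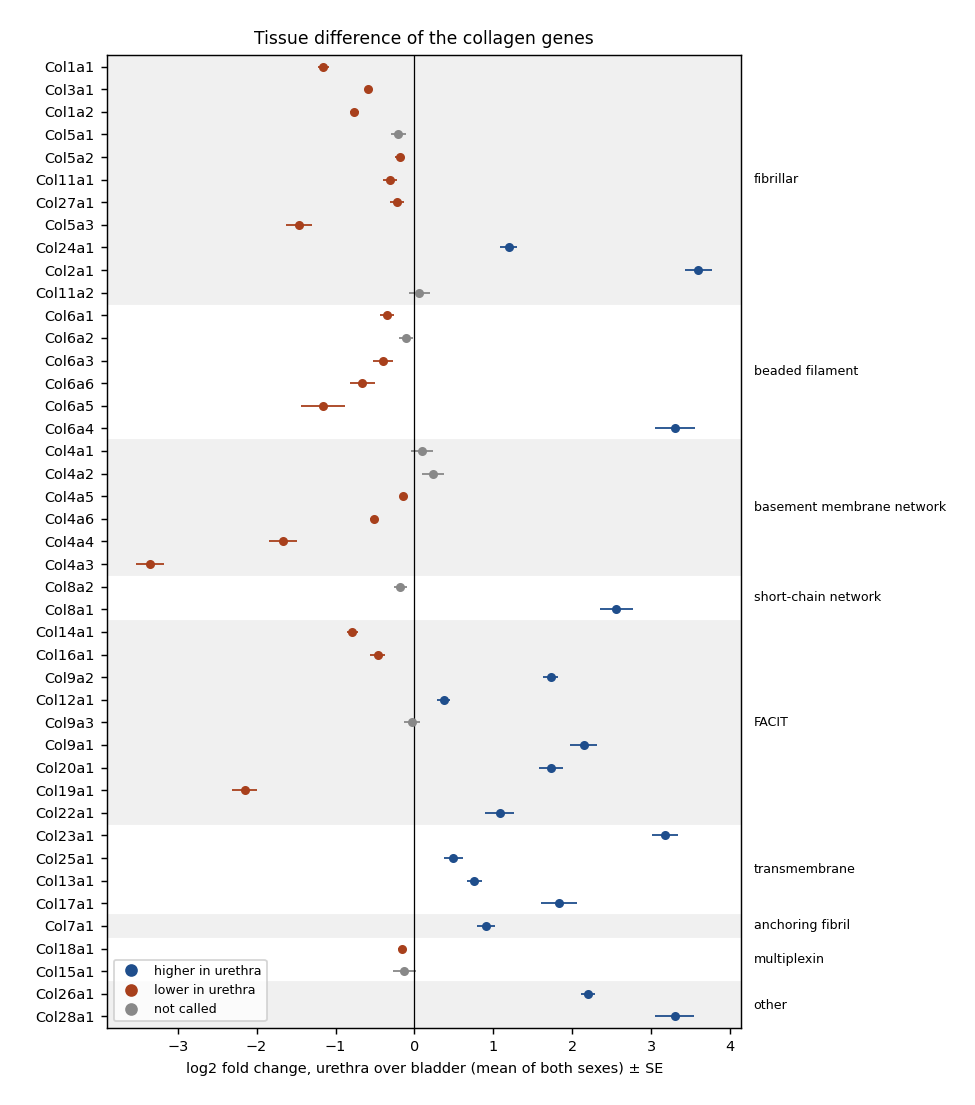
Fitted log2 fold change of urethra over bladder for the 43 collagen genes (mean of both sexes, 8 libraries per tissue), with bars of 1 standard error, colours for the call and genes grouped by class. The 4 transmembrane genes all lie above 0, most fibrillar genes lie below 0, and the extremes are Col2a1 at 3.60 and Col4a3 at −3.35.

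Of the 11 fibrillar genes, 7 were lower in the urethra, 2 were higher and 2 were not called. Among all genes 38.5% were lower and 36.5% higher, the background for this and each class below, and no class was tested as a set. Col1a1 (chr11:94936224-94953042 on GRCm38) ranged from 5119 to 6954 CPM in the bladder (median 5576) and from 2235 to 2859 CPM in the urethra (median 2636). Each bladder library lay above each urethra library, and Col1a1 was lower in all 8 pairs of the same litter and sex. The log2 fold change was −1.16 ± 0.07 (SE, adjusted p = 2.12e-10, edgeR). Col1a2 ranged from 3841 to 5067 CPM in the bladder (median 4367) and from 2273 to 2754 CPM in the urethra (median 2619.8), again without overlap, and fell by 0.76 ± 0.05 on the log2 scale. Col3a1 ranged from 5098 to 6189 CPM in the bladder (median 5508) and from 3333 to 4064 CPM in the urethra (median 3712). Its tissues did not overlap either, and it fell by 0.59 ± 0.04 on the log2 scale. Smooth muscle markers summed to 14665 to 19024 CPM in the bladder and 1699.6 to 2263 CPM in the urethra. Fibroblast markers summed to 2322 to 2805 CPM in the bladder and 2949.7 to 3409 CPM in the urethra. No marker of either list was at 0 in any group, and the part of both in these decreases was not tested.

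Type V and type XI chains start fibrils and limit how thick they grow. Col5a3 ranged from 22 to 48.4 CPM in the bladder (median 29.8) and from 7.62 to 16.2 CPM in the urethra (median 12.2). The tissues of Col5a3 did not overlap, and the log2 fold change was −1.46 ± 0.16 (adjusted p = 5.83e-07, edgeR). Col5a2 was slightly lower (−0.19 ± 0.06), with overlapping ranges. Col5a1 ranged from 826 to 1336 CPM in the bladder (median 899.9) and from 720.0 to 1008 CPM in the urethra (median 846). With overlapping ranges it was not called (−0.20 ± 0.09, adjusted p = 0.0549, edgeR), but with the litter as a replicate block it was called lower (adjusted p = 0.0237). Col11a1, the type XI chain of cartilage and other fibrils, was lower (−0.31 ± 0.09), and its partner Col11a2 was not called (0.06 ± 0.13). Col27a1, a fibrillar gene of cartilage, was lower by a small amount (−0.22 ± 0.09), and that call was lost in 11 of the 16 fits that left out 1 library, all but those without male bladder replicate 3, female urethra replicate 3 or 4, or male urethra replicate 2 or 4.

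The 2 fibrillar genes that were higher in the urethra are of low level. Col2a1 (chr15:97975602-98004695), the main collagen of cartilage, was at 0.894, 2.73, 1.16 and 1.33 CPM in female bladder replicates 1 to 4 and at 0.802, 1.02, 1.43 and 0.966 CPM in male bladder. In the urethra it was at 14.6, 13.3, 18 and 15.9 CPM in females and at 13.2, 13.2, 16.5 and 18.6 CPM in males. The highest bladder library lay far under the lowest urethra library, and the log2 fold change of 3.60 ± 0.18 (adjusted p = 1.84e-11, edgeR) was the largest among the members. The 12 cartilage markers summed to 60.5 to 76.8 CPM in the bladder and 109 to 137 CPM in the urethra, with Snorc at 0 counts in female urethra. Of 8 cartilage markers tested 5 were higher in the urethra and 0 lower, and their part in the Col2a1 result was not tested. Col24a1, a fibrillar gene of developing bone and cornea, was higher by 1.19 ± 0.11, with a difference between the sexes that is described further on.

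FACIT collagens sit on the surface of fibrils and link them to other matrix. Of the 9 FACIT genes, 5 were higher, 3 lower and 1 not called, where 36.5% of all genes were higher and 38.5% lower. The tissues did not overlap for 6 of them, 66.7% against 42.3% of all genes. Col9a1 and Col9a2 encode chains of type IX collagen, which coats cartilage fibrils. Col9a1 ranged from 2.12 to 5.39 CPM in the bladder and from 12.1 to 16.7 CPM in the urethra, a log2 fold change of 2.14 ± 0.17. Col9a2 ranged from 33 to 58.5 CPM in the bladder and from 122 to 172 CPM in the urethra, a log2 fold change of 1.73 ± 0.09. Both rose without overlap, whereas the remaining chain of the same protein, Col9a3, ranged from 7.44 to 11.1 CPM and from 7.45 to 11.6 CPM and was not called (−0.03 ± 0.10). Per length the chains were far from equal in the urethra, with Col9a2 at 44.7 CPM per kb, Col9a1 at 2.88 and Col9a3 at 2.46. Col20a1 (1.73 ± 0.15) and Col22a1, a collagen of tissue junctions such as that of muscle and tendon (1.08 ± 0.18), were higher without overlap. Col12a1, which lies in dense connective tissue, was higher with overlap (0.37 ± 0.08).

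Among the FACIT genes lower in the urethra, Col14a1, which regulates fibril growth in tendon and skin, ranged from 443 to 709 CPM in the bladder and from 292 to 356 CPM in the urethra. It fell by 0.79 ± 0.07 on the log2 scale without overlap, and Col16a1 was lower with overlap (−0.46 ± 0.10). Col19a1, needed for the muscle of the oesophagus to mature, was at 3.47, 3.01, 5.46 and 4.03 CPM in female and 3.61, 4.04, 3.70 and 2.47 CPM in male bladder. Urethra libraries were at 0.730, 1.00, 1.23 and 1.11 CPM in females and 0.712, 0.629, 0.877 and 0.518 CPM in males. No urethra library of Col19a1 reached the lowest bladder library, and the log2 fold change was −2.15 ± 0.16 (adjusted p = 3.14e-09, edgeR).

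In the basement membrane network 4 of the 6 type IV genes were lower in the urethra, 0 were higher and 2 were not called. Among all genes 38.5% were lower and 36.5% higher. Type IV genes lie in pairs that start close together on opposite strands. Their chains assemble in fixed trios: a common form of Col4a1 and Col4a2 products, and more restricted forms of Col4a3, Col4a4 and Col4a5 products or of Col4a5 and Col4a6 products. Between the annotated starts of Col4a4 and Col4a3 on chromosome 1 lie 71 bases, which are shown because both neighbours fell. The stretch is chr1:82586850-82586920, read 5′ to 3′ on the minus strand toward Col4a4, from the RefSeq promoter table of GRCm38.p6.

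Col4a4 to Col4a3: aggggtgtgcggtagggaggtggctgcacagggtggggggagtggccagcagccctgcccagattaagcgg

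Its GC content is 69.0%. On both strands it was searched for a TATA box (TATAAA), for the CCAAT box, for a GC box (GGGCGG) and for the core of a steroid receptor element (AGAACA). No match was found, so no letter is in capitals. In the 250 bases before the start, these letters occur in 12.4, 33.8, 32.7 and 16.1% of the 32851 promoters of the table. Of the members 34 had an entry, and 4 of these held the first, 13 the second, 21 the GC box and 2 the steroid receptor core. A match describes letters in the window only.

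Col4a3 (chr1:82586921-82722059) was at 10.1, 9.14, 17.8 and 9.12 CPM in female bladder replicates 1 to 4 and at 9.58, 12.3, 13.1 and 14 CPM in male bladder. In the urethra it was at 0.825, 0.721, 1.39 and 1.01 CPM in females and at 1.25, 1.05, 1.65 and 1.48 CPM in males. The tissues were far apart, and the log2 fold change of −3.35 ± 0.18 (adjusted p = 4.43e-11, edgeR) was the largest decrease among the members. Col4a4 (chr1:82448423-82586849) was at 8.89, 11.1, 11.3 and 8.17 CPM in female and 11.6, 20.9, 9.48 and 21.8 CPM in male bladder. In the urethra Col4a4 was at 2.16, 2.44, 3.87 and 4.18 CPM in females and 5.09, 4.75, 4.77 and 5.04 CPM in males. It fell by 1.67 ± 0.18 on the log2 scale, also without overlap. Per length both were minor chains in the bladder, with Col4a3 at 1.19 and Col4a4 at 1.22 CPM per kb against 31 for Col4a5.

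The chains of the common form were not called. Col4a1 (chr8:11198423-11312826) ranged from 711 to 1437 CPM in the bladder (median 831) and from 801 to 1176 CPM in the urethra (median 1028). The ranges of Col4a1 overlapped, and the log2 fold change was 0.09 ± 0.14 (adjusted p = 0.557, edgeR). Without female urethra replicates 3 and 4 it was −0.02, and with the epithelium score as a covariate −0.35 (adjusted p = 0.111). Col4a2 overlaps Col4a1 by 22 bases at their starts on opposite strands of chromosome 8, and the counting used strand. Its log2 fold change was 0.23 ± 0.14 (adjusted p = 0.142, edgeR), and with blocks by litter and sex it was called higher (adjusted p = 0.0117). Col4a5 and Col4a6 were lower on the mean of the sexes (−0.15 ± 0.04 and −0.51 ± 0.05), but their values differed by sex, as described further on.

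**Figure D3:**
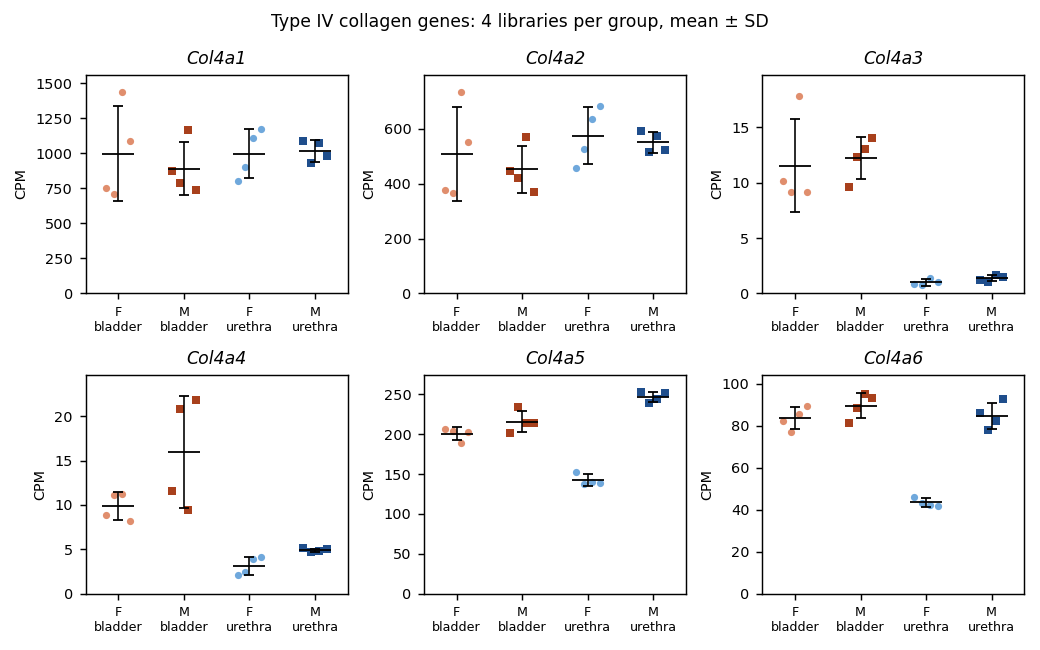
CPM of the 6 type IV collagen genes in each library of the 4 groups (F female, M male), with the group mean as a dash and bars of 1 SD (n = 4), on axes that start at 0. Col4a3 and Col4a4 are low in both urethra groups, while Col4a5 (137 to 153 CPM) and Col4a6 (41.8 to 46.3 CPM) are low in female urethra and not in male urethra.

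Of the 6 genes of beaded-filament type VI collagen, 1 was higher, 4 were lower and 1 was not called. Among all genes 36.5% were higher and 38.5% lower. Col6a1 ranged from 774 to 1239 CPM in the bladder (median 865) and from 632 to 817 CPM in the urethra (median 736). It was lower in 8 of 8 pairs, with overlapping ranges, at −0.35 ± 0.09 (adjusted p = 0.00266, edgeR). Col6a3 was lower as well (−0.40 ± 0.13), and Col6a2 was not called (−0.11 ± 0.09). The other 3 chains are encoded in a row on the same strand of chromosome 9, with 27.9 kb between Col6a6 and Col6a5 and 28.8 kb between Col6a5 and Col6a4. Col6a6 was lower (−0.66 ± 0.16), with overlapping ranges. Col6a4 (chr9:105989454-106096783) was at 2.12, 1.65, 2.38 and 2.39 CPM in female and 1.15, 1.80, 1.90 and 1.40 CPM in male bladder. In the urethra it was at 21, 6.57, 26.8 and 21.1 CPM in females and 19.4, 15.1, 13 and 21.8 CPM in males. Every urethra library of Col6a4, female replicate 2 included, lay above every bladder library, and the log2 fold change was 3.30 ± 0.25 (adjusted p = 7.51e-09, edgeR).

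Col6a5 (chr9:105856078-105960643), which lies between these neighbours, varied widely within groups. It was at 24.5, 18, 8.96 and 34 CPM in female and 10.4, 12.6, 7.36 and 12.7 CPM in male bladder. Urethra libraries were at 3.59, 10.8, 6.19 and 2.90 CPM in females and 8.58, 8.59, 7.86 and 6.63 CPM in males. The tissues overlapped, 7 of 8 pairs were lower in the urethra, and the log2 fold change was −1.16 ± 0.28 (adjusted p = 0.00157, edgeR). With the epithelium score as a covariate the tissue calls of Col6a5, Col6a6, Col12a1, Col25a1 and Col4a5 were lost. The log2 fold changes then were −0.59 for Col6a5, −0.50 for Col6a6, 0.19 for Col12a1, 0.12 for Col25a1 and −0.07 for Col4a5. Under that covariate Col5a1 (−0.52, adjusted p = 8.69e-04, edgeR) and Col6a2 (−0.43, adjusted p = 0.00194) were called lower. As the score itself differed between the tissues, the covariate can also take up part of the tissue difference.

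Transmembrane collagens are anchored in the cell surface and can be shed from it. The 4 genes were higher in the urethra in 8 of 8 pairs each, and Col13a1 and Col23a1 did not overlap between tissues. Among all genes 36.5% were called higher and 42.3% did not overlap, and the share with the same direction in all pairs was not computed. Col23a1 was at 14.4, 27, 22.6 and 19.3 CPM in female and 13.7, 18.9, 26.1 and 13.1 CPM in male bladder. Its urethra libraries were at 142, 134, 191 and 205 CPM in females and 181, 153, 205 and 187 CPM in males. All urethra libraries of Col23a1 stood several fold above all bladder libraries, and the log2 fold change was 3.17 ± 0.16 (adjusted p = 1.08e-10, edgeR). Col13a1, a collagen of neuromuscular junctions, was higher by 0.76 ± 0.10, and Col25a1, which muscle needs for its motor nerve supply, by 0.49 ± 0.12. Skeletal muscle markers summed to 25 to 44.1 CPM in the bladder and 130.1 to 238 CPM in the urethra, and neuron markers to 68.6 to 465 and 1621 to 2639 CPM, with none at 0 in any group. Most of the skeletal muscle sum in the bladder was Myh8, the 1 of 13 called lower in the urethra, at means of 29.8 and 13.1 CPM. The part of these marker lists in these collagen increases was not tested.

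Col17a1 holds basal epithelial cells to the basement membrane, and Col7a1 forms the fibrils that anchor that membrane to the tissue below. Col17a1 was at 8.66, 8.69, 6.12 and 6.52 CPM in female and 6.57, 14.7, 13.7 and 12.6 CPM in male bladder. Its urethra libraries were at 33.7, 44.2, 19.6 and 13.3 CPM in females and 35.4, 38.6, 41.9 and 46.6 CPM in males. Of the urethra values the lowest were those of female replicates 3 and 4, the libraries with the lowest epithelium scores, and replicate 4 lay within the bladder range. The log2 fold change of Col17a1 was 1.83 ± 0.23. Col7a1 ranged from 9.71 to 19.7 CPM in the bladder and from 19.9 to 38.8 CPM in the urethra and was higher by 0.90 ± 0.12, the ranges just failing to meet. Of the 15 epithelium markers 10 were called lower in the urethra and 2 higher, with none at 0 in any group. Mean CPM in bladder and urethra rose for Krt14 (12.97 and 44.3), Krt5 (214.6 and 304.4), Epcam (91.67 and 113.9) and Grhl2 (20.11 and 26.64). Means of the other listed markers fell, Trp63 among them (34.67 and 31.64). The part of these markers in the results of Col17a1 and Col7a1 was not tested.

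Of the short-chain genes, whose products build open lattices, Col8a1 was higher in the urethra and Col8a2 was not called. Col8a1 (chr16:57624258-57754737) ranged from 3.26 to 16.4 CPM in the bladder (median 8.08) and from 28.3 to 99.3 CPM in the urethra (median 52.5). The tissues did not overlap, and the log2 fold change was 2.56 ± 0.21 (adjusted p = 2.71e-08, edgeR). Col8a2 was at −0.18 ± 0.08 (adjusted p = 0.0553, edgeR) and was called lower with the litter as a replicate block (adjusted p = 0.0439). Of the multiplexins, collagens of the basement membrane zone that carry sugar chains, Col18a1 was slightly lower (−0.16 ± 0.05) and Col15a1 was not called (−0.13 ± 0.14).

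Both members outside the larger classes were higher in the urethra without overlap. Col26a1 (chr5:136741759-136883209), first described in testis and ovary, was at 80.9, 99.8, 89.2 and 114 CPM in female and 48.9, 76.8, 65.3 and 51.4 CPM in male bladder. In the urethra it was at 356, 332, 394 and 382 CPM in females and 361, 324, 335 and 324 CPM in males. At 2.20 ± 0.09 (adjusted p = 3.63e-12, edgeR) it had the smallest p among the members. Col28a1, a collagen of peripheral nerve sheaths, was at 0.391, 0.341, 0.202 and 0.530 CPM in female and 0.351, 0.194, 1.20 and 0.537 CPM in male bladder. Its urethra libraries were at 3.46, 5.37, 4.84 and 6.30 CPM in females and 4.24, 4.40, 4.11 and 3.93 CPM in males, so the groups stood apart at a log2 fold change of 3.30 ± 0.24. Glia markers summed to 65.6 to 124 CPM in the bladder and 215 to 276 CPM in the urethra, with none at 0 in any group, and their part in the Col28a1 result was not tested.

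Genes that lie next to each other did not always move together. Col9a1 and Col19a1 end toward each other on chromosome 1, 9.21 kb apart, and changed in opposite directions. Col3a1 and Col5a2 also end toward each other, 24.6 kb apart, and both were lower in the urethra.

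Partner chains of a protein did not always keep their ratio. The ratio of Col1a1 to Col1a2 per kb was 2.36 to 2.76 in the bladder (2.52 ± 0.140, SD, n = 8) and 1.86 to 1.97 in the urethra (1.92 ± 0.0462, SD, n = 8), without overlap. The ratio of Col6a1 to Col6a2 was 1.91 to 2.01 in the bladder and 1.61 to 1.72 in the urethra, also without overlap. For Col4a1 over Col4a2 the ranges were 1.66 to 1.81 and 1.52 to 1.67, which met at their ends. In contrast, Col5a1 over Col5a2 (1.55 ± 0.173 and 1.54 ± 0.141) and Col6a3 over Col6a1 (0.314 ± 0.0260 and 0.308 ± 0.0408) overlapped widely between bladder and urethra. Scaling between libraries cancels in these ratios, and they were not tested. Their level, unlike their relative difference between tissues, depends on the annotated exon lengths.

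**Figure D4:**
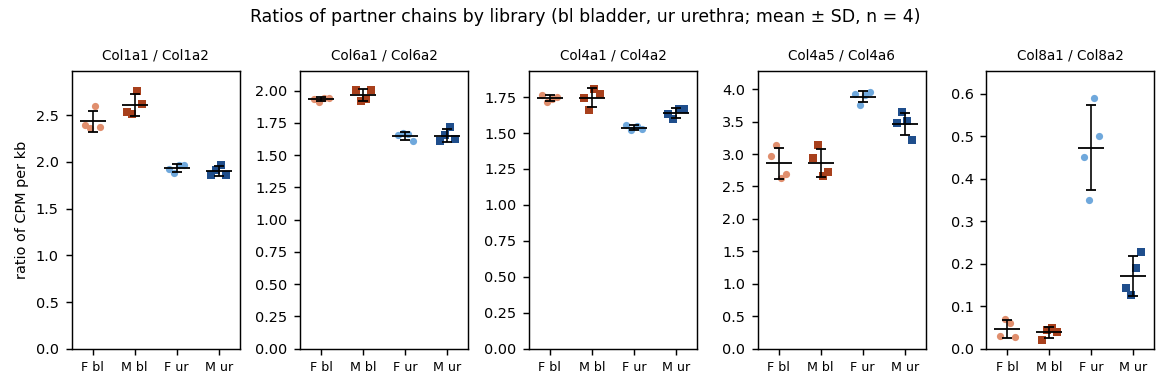
Ratio of CPM per kb of partner chains in each library (F female, M male, bl bladder, ur urethra), with group means and bars of 1 SD (n = 4), on axes that start at 0. Col1a1 over Col1a2 and Col6a1 over Col6a2 lie lower in both urethra groups than in both bladder groups, and Col8a1 over Col8a2 is highest in female urethra at 0.349 to 0.589.

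Within each sex, the tissue comparison gave 15 higher and 19 lower members in females, where 65.7% of all genes were called (32.6% higher and 33.1% lower). In males it gave 17 higher and 11 lower members, where 64.0% of all genes were called (31.4% higher and 32.6% lower). The members called came to 79.1% in females and 65.1% in males, the latter close to all genes. Under other settings of the fit the number lower ran from 14 to 21 in females and from 8 to 16 in males. Called lower in females and not called in males were 8 members, Col27a1, Col4a6, Col5a2, Col6a1, Col6a3, Col6a5, Col6a6 and Col8a2. Of these the difference between the sexes itself passed the test for Col4a6 alone, and for Col8a2 it missed the threshold (adjusted p = 0.0559, edgeR) and passed with the litter as a replicate block (adjusted p = 0.0343) and with the epithelium score as a covariate (adjusted p = 0.0419). Col4a5 was called in both directions, lower in female urethra (−0.50 ± 0.05, adjusted p = 5.04e-07) and higher in male urethra (0.19 ± 0.05, adjusted p = 0.00423), each against the bladder of the same sex.

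The comparison of males with females in the urethra asks which collagen genes differ by sex there. In male urethra Col4a5, Col4a6, Col24a1 and Col18a1 were higher and Col8a1 was lower, 11.6% of the members, where 6.39% of all genes were called, 3.97% higher and 2.42% lower (edgeR quasi-likelihood test). The 4 libraries of each sex did not overlap for 8 members, 18.6% against 13.4% of all genes: these 5 and Col4a4, Col6a3 and Col7a1, which were not called. Library totals alone in place of TMM moved the share of higher genes among all those called from 62.1 to 71.1%. The litter as a replicate block added Col13a1, lower in males (−0.37, adjusted p = 0.03 against 0.11 without the block).

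Markers of other cell types also differed between the sexes of the urethra. Epithelium markers summed to 689 to 1973 CPM in females and 1824 to 2449.5 CPM in males, and 1 of 15, Krt7, was called higher in males (edgeR). Cartilage markers summed to 109 to 122 and 122 to 137 CPM. Of the 8 cartilage markers tested 2 were higher in males, Cnmd (0.754 ± 0.238 against 6.10 ± 2.22 CPM, SD, n = 4) and Sox9 (18.5 ± 3.49 against 32 ± 3.52 CPM). Means of Matn4 (41.0 against 34.9 CPM), Hapln1 (31.8 against 30.9 CPM) and Sox5 (13.8 against 13.2 CPM) were lower in males. Those of Acan (1.89 against 3.01 CPM) and Sox6 (8.17 against 9.95 CPM) were higher. Tendon markers summed to 43.6 to 49.2 and 62 to 74.6 CPM, with 1 of 5 higher in males, Mkx (16.2 ± 1.07 against 43.2 ± 4.27 CPM). The other tendon markers were not called. Means of Scx (14.7 against 10.8 CPM), Kera (6.67 against 5.69 CPM) and Thbs4 (3.51 against 2.98 CPM) were lower in males, and that of Tnmd (4.76 against 5.58 CPM) was higher. Bone markers summed to 53.2 to 60.1 and 51.4 to 63 CPM, with Ibsp higher and Spp1 lower in males of 7 tested. Mesothelium markers summed to 213 to 394 and 401 to 496 CPM, with Msln higher of 8. Most of that sum was Krt19, which is also in the epithelium list, at means of 182 CPM in females and 307 CPM in males. Wt1 went the other way, at means of 83.6 and 63.7 CPM. Fibroblast markers summed to 3109 to 3409 and 2949.7 to 3163 CPM, with Dpt and Twist2 lower of 9. The part of these cell types in the sex differences below was not tested, other than by the epithelium covariate.

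Col4a5 and Col4a6 encode chains of the type IV collagen around smooth muscle and under some epithelia, and they start 1308 bases apart on opposite strands of the X chromosome. The sequences before both starts are shown because these neighbours had the smallest p between sexes among the members, and that of Col24a1 because it had the largest difference. They come from the same RefSeq table and are read 5′ to 3′ toward the gene, with CCAAT and GGGCGG in capitals on either strand (CCGCCC is GGGCGG on the other strand). Col4a5 is chrX:141475169-141475384 on the plus strand and ends before the first annotated exon, Col4a6 is chrX:141474077-141474326 on the minus strand, and Col24a1 is chr3:145292222-145292471 on the plus strand.

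Col4a5: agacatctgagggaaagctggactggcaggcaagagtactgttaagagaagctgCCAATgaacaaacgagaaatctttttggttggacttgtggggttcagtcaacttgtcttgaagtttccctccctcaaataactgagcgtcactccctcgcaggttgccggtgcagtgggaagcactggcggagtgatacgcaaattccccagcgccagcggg

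Col4a6: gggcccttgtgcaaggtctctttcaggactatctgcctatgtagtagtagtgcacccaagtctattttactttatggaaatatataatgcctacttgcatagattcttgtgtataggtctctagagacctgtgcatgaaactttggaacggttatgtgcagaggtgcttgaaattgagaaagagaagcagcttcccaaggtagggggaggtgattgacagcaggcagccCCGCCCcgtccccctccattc

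Col24a1: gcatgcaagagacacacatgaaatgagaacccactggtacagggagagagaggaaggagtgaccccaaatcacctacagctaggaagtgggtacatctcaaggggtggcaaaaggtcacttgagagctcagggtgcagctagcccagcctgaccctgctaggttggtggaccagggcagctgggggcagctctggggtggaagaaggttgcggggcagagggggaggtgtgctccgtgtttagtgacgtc

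The Col4a5 window holds 1 CCAAT, with 157 bases from its last base to the end of the window, and the Col4a6 window holds 1 GGGCGG on the other strand, 15 bases from the end. In the Col24a1 window none of the 4 searched motifs was found. The GC content is 52.3% for Col4a5, 47.6% for Col4a6 and 58.0% for Col24a1. Bases 31 to 50 after the start used were held by 1 of 4 annotated transcripts of Col4a5, 1 of 3 of Col4a6 and 1 of 4 of Col24a1. For Col4a4 it was 1 of 2. Each window thus belongs to 1 annotated start, and other transcripts of these genes may start elsewhere.

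Col4a5 (chrX:141475385-141689234) was at 153, 137, 139.8 and 139 CPM in female urethra and at 252, 239.6, 243 and 251 CPM in male urethra. In the bladder it was at 206, 204, 189 and 203 CPM in females and 202, 233, 214 and 213 CPM in males. Female urethra was the lowest group and male urethra the highest, with no overlap with the bladder groups, which overlapped each other. The log2 fold change of male over female was 0.79 ± 0.05 in the urethra (adjusted p = 7.26e-08, edgeR) and 0.10 ± 0.05 in the bladder (adjusted p = 0.455).

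Col4a6 (chrX:141165403-141474076) was at 46.3, 43.4, 42.4 and 41.8 CPM in female urethra and at 86.2, 78, 82.4 and 92.6 CPM in male urethra. In the bladder it was at 82.3, 77.2, 85.4 and 89.5 CPM in females and 81.5, 88.3, 95.2 and 93.1 CPM in males. Female urethra alone stood apart, and the other 3 groups overlapped. The log2 fold change of male over female was 0.96 ± 0.07 in the urethra (adjusted p = 8.39e-08, edgeR) and 0.10 ± 0.07 in the bladder (adjusted p = 0.598). The ratio of Col4a5 to Col4a6 per kb was 2.63 to 3.14 in the bladder, 3.22 to 3.64 in male urethra and 3.75 to 3.95 in female urethra, 3 ranges that did not overlap.

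Col24a1 (chr3:145292472-145552011) was at 5.97, 5.61, 8.12 and 8.56 CPM in female urethra and at 17.2, 19.2, 18.7 and 19.8 CPM in male urethra. In the bladder it was at 5.03, 3.92, 5.97 and 5.04 CPM in females and 4.31, 5.20, 6.11 and 4.67 CPM in males. Male urethra stood well above the other 3 groups, which overlapped. The log2 fold change of male over female was 1.40 ± 0.15 in the urethra (adjusted p = 1.11e-05, edgeR) and 0.02 ± 0.16 in the bladder. Against the bladder of the same sex, Col24a1 was higher by 0.50 ± 0.16 in female and 1.88 ± 0.15 in male urethra. The female call was lost without female urethra replicates 3 and 4 and with the epithelium score as a covariate.

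Col8a1 was at 70.7, 64.4, 99.3 and 94.7 CPM in female urethra and at 29.7, 28.3, 39.1 and 40.6 CPM in male urethra. In the bladder it was at 6.99, 16.4, 14.4 and 8.49 CPM in females and 3.26, 9.87, 7.31 and 7.67 CPM in males. Female urethra was the highest group, without overlap with males, and the log2 fold change of male over female was −1.26 ± 0.27 (adjusted p = 0.0102, edgeR). The highest values were those of female replicates 3 and 4, the libraries with the lowest epithelium scores. Without them it was −0.97 (adjusted p = 0.194), and with the epithelium score as a covariate −1.09 (adjusted p = 0.115).

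Col18a1, the source of endostatin, was at 230.2, 255, 260.3 and 265 CPM in female and 314, 278, 308 and 281 CPM in male urethra. In the bladder it was at 284, 271, 286 and 292 CPM in females and 294, 353, 339 and 326 CPM in males. The sexes did not overlap in either tissue, with males higher by 0.22 ± 0.06 in the urethra (adjusted p = 0.0459, edgeR) and 0.21 ± 0.06 in the bladder (adjusted p = 0.15), where it was not called. The urethra call was made in 14 of 26 alternatives. It was lost without any 1 of the 4 female urethra libraries, without male urethra replicate 1, 3 or 4, and without male bladder replicate 4. It was lost as well with DESeq2 size factors (adjusted p = 0.0693, edgeR), with no filter on low counts, without female urethra replicates 3 and 4 together (adjusted p = 0.099) and with the epithelium score as a covariate (adjusted p = 0.064).

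In the bladder 1 member was called between the sexes, 2.33% of the members, where 0.581% of all genes were called, 0.247% higher and 0.334% lower. The member called was Col26a1, lower in males at −0.66 ± 0.13 (adjusted p = 0.0246, edgeR). Its male bladder libraries, at 48.9 to 76.8 CPM, lay below the female ones, at 80.9 to 114 CPM. In the urethra the difference of Col26a1 was −0.12 ± 0.12 and was not called. Libraries of the sexes did not overlap in the bladder for 4 members, 9.3% against 6.61% of all genes, which were Col26a1, Col8a2 and Col3a1, lower in males, and Col18a1. Col8a2 missed the threshold in the bladder (−0.50 ± 0.12, adjusted p = 0.0585) and was called lower in males with the litter as a replicate block (adjusted p = 0.0481). The bladder sexes also differed in epithelium markers, which summed to 2128 to 4313 CPM in females and 4392 to 5258 CPM in males, and the Col26a1 call was lost with the epithelium score as a covariate (adjusted p = 0.127). It was also lost without female bladder replicate 3 or 4 and without male bladder replicate 1 or 4, with log2 fold changes between −0.80 and −0.58 over all 26 alternatives.

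**Figure D5:**
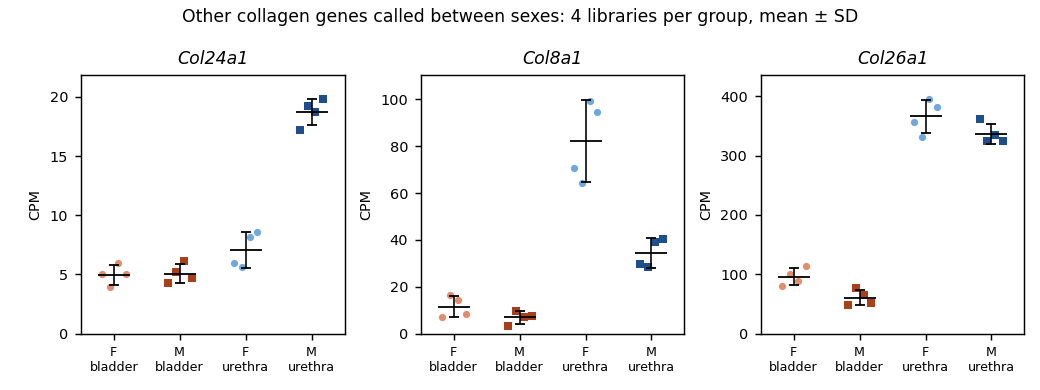
CPM of Col24a1, Col8a1 and Col26a1 in each library of the 4 groups (F female, M male), with the group mean as a dash and bars of 1 SD (n = 4), on axes that start at 0. Col24a1 is highest in male urethra, Col8a1 in female urethra, and Col26a1 is lower in male than in female bladder while the urethra groups overlap.

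The interaction of tissue and sex tests whether the tissue difference itself differs between males and females. It was called for 3 members, 6.98% of them, where 0.668% of all genes were called, 0.537% higher and 0.131% lower. These were Col24a1 (1.38 ± 0.22, adjusted p = 0.00404), Col4a6 (0.87 ± 0.09, adjusted p = 9.87e-05) and Col4a5 (0.69 ± 0.08, adjusted p = 1.16e-04, edgeR), each as the male minus the female log2 fold change of urethra over bladder. For these 3 genes the sex call in the urethra and the interaction call were made in 26 of 26 alternatives.

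Genes that make, process and bind collagen were counted in lists of the pathway. Of 22 genes of collagen synthesis and folding, 4 were higher and 14 lower in the urethra, where 75.0% of all genes were called, 36.5% higher and 38.5% lower, the background for each of these lists. The synthesis list had a median log2 fold change of −0.33 (−0.03 over all genes). The largest decreases were those of Tmem38b (−1.16 ± 0.06), an ion channel of the endoplasmic reticulum, and P4ha2 (−0.93 ± 0.06), a prolyl hydroxylase. The largest increases were those of Colgalt2 (1.72 ± 0.12), which adds galactose to collagen, and P3h2 (0.78 ± 0.09), a prolyl hydroxylase of basement membrane collagen. Of 14 genes of procollagen processing and cross-linking, 8 were higher and 3 lower, with a median of 0.26. Tll2 (2.82 ± 0.21), a tolloid-like protease, and Pcolce2 (1.75 ± 0.16), an enhancer of procollagen cleavage, rose the most. Both were at low level, with bladder and urethra means of 0.212 and 1.53 CPM for Tll2 and of 0.665 and 2.24 CPM for Pcolce2. Adamts14 (−1.15 ± 0.10), which removes the amino-terminal propeptide, and Pcolce (−0.41 ± 0.04) fell the most.

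Small leucine-rich proteoglycans bind fibrils and set their spacing, and of 11 such genes 5 were higher and 4 lower, with a median of 0.02. Kera (2.12 ± 0.21) and Epyc (1.92 ± 0.27) rose the most, and Podn (−2.14 ± 0.15) and Prelp (−1.90 ± 0.15) fell the most. Of 10 collagen receptors 5 were higher and 4 lower, with a median of 0.17. The immune receptor Lair1 (3.08 ± 0.41) and the integrin chain Itga11 (1.33 ± 0.21) rose the most, and the integrin chains Itga1 (−1.56 ± 0.15) and Itgb1 (−0.64 ± 0.06) fell the most. Lair1 was at very low level, with bladder and urethra means of 0.0640 and 0.580 CPM. Of 15 partners in the basement membrane 3 were higher and 4 lower, with a median of −0.02. The laminin chain Lama1 (1.01 ± 0.14) and agrin, Agrn (0.69 ± 0.06), rose the most, while the laminin chain Lama5 (−1.14 ± 0.11) and the nidogen Nid2 (−0.84 ± 0.07) fell the most.

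Between the sexes in the urethra, where 6.39% of all genes were called, 3 of 11 small leucine-rich proteoglycans were higher in males, 0 were lower and 8 were not called. Aspn, which binds type I collagen, was at 27.6 ± 2.81 CPM in female and 73.2 ± 5.88 CPM in male urethra (SD, n = 4), a log2 fold change of 1.41 ± 0.15 (adjusted p = 2.19e-05, edgeR). Podn was higher by 0.82 ± 0.22. Of the basement membrane partners, the laminin chain Lamb3 was higher in males (0.92 ± 0.19). Colgalt2 (0.75 ± 0.15) of the synthesis list and the receptor Adgrg1 (0.54 ± 0.13) were also higher, and the cross-linking enzyme Loxl1 (−0.48 ± 0.11) was lower. In the bladder, where 0.581% of all genes were called, 1 gene of these lists passed, the receptor Mrc2, lower in males (−0.45 ± 0.10, adjusted p = 0.0453, edgeR).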

How the data were processed

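RNA of 16 mesenchyme libraries was read as 100 bp paired ends after poly(A) selection of 250 ng of total RNA with a strand-specific kit, per the labels' protocols. The authors' processing used bcl2fastq, HISAT2 2.1.0, SAMtools, Subread 1.6.3 and DESeq2 on GRCm38, per the submitters' processing notes. The deposited table holds raw counts of read pairs per gene symbol from featureCounts with strand setting 2, per the file headers. Which annotation release was used is not given in the sources. The second deposited table, of values the authors had scaled, was not used here.

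Counts were fitted with edgeR 4.0.16 in R 4.3.3 (quasi-likelihood test, robust, TMM scaling, filterByExpr), in 1 fit of 4 groups and 18254 genes. The p-values were adjusted by Benjamini and Hochberg over all of these, with a threshold of 0.05, and SE was taken as the absolute log2 fold change over the root of the F statistic. CPM are on TMM-scaled totals. Python 3.11.15, with pandas 2.3.3 and matplotlib 3.10.9, made the figures. The scripts were tested on simulated data. Alternatives were other scalings and filters, limma-voom (limma 3.58.1), the DESeq2 1.42.0 Wald test, replicate blocks, only the groups compared, an epithelium covariate, and libraries left out.

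Replicate numbers mark litters, per the labels. Deviations from group means correlated at 0.0921 to 0.409 between tissues of the same litter and sex (7 of 8 pairs over 0.1) and at −0.0475 to 0.265 between sexes of the same litter and tissue (4 of 8). Libraries of a group differed beyond sampling noise (chi-squared per degree of freedom 4.91 to 37.6 over 24 pairs). Counts on the same strand can be shared with an overlapping gene over 141 exon bases of Col3a1, 79 of Col20a1 and 36 of Col7a1.

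The members, the marker and pathway lists and the alternatives were chosen with earlier results of these data known. Each member is named. Values per library, or the lowest, median and highest of the 8 libraries of a tissue, are given for the 6 highest by CPM per kb, the 6 largest changes in each direction between tissues, and the members called between sexes or for the interaction, and from the pathway lists the 2 largest called changes in each direction are named. For 1 list a result between sexes is not reported here. Values per library of Col17a1, and the ranges of further members, were added after the values were seen. Promoter windows were matched by symbol for 34 of 43 members.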

Additional observations from a re-analysis of the deposited data

Results flagged for a closer look

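In 84 groups of 4 libraries (21 collagen genes in 4 groups) the library farthest from the others was checked against Dixon's 95% critical value, and 3 groups passed it, where chance flags about 1 in 20 groups. Col5a1 was at 1049 CPM in male bladder replicate 3, and the other male bladder libraries were at 826 to 842 CPM. Col4a3 was at 17.8 CPM in female bladder replicate 3, and the other female bladder libraries were at 9.12 to 10.1 CPM. Col4a5 was at 153 CPM in female urethra replicate 1, and the other female urethra libraries were at 137 to 140 CPM, all below each library of the other groups.

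The tissue difference differed between the sexes for 3 collagen genes by the interaction term of the edgeR fit. The male minus the female log2 fold change of urethra over bladder was 1.38 for Col24a1, 0.87 for Col4a6 and 0.69 for Col4a5.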

How the results depend on the processing

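Between tissues the number of collagen genes higher in the urethra was 14 to 17 and the number lower 13 to 21 over all alternatives, and no member called was called in the opposite direction. Library totals alone and no filter on low counts ended the same 6 small decreases. The sign of the Col4a1 tissue difference, which was not called, turned to −0.015 without female urethra replicates 3 and 4 and to −0.35 with the epithelium covariate. The 1 collagen gene lower in male urethra became 2 with the litter as a replicate block and 0 without female urethra replicates 3 and 4 or with the epithelium covariate, and was 1 to 2 with 1 library left out (2 without female urethra replicate 2). The 1 lower in male bladder became 4 by the DESeq2 Wald test, 2 with the replicate block, and 0 without a filter, with only the bladder groups or with the epithelium covariate, and was 0 to 2 with 1 library left out (2 without female bladder replicate 1 or male bladder replicate 2). The 3 interaction calls became 5 by the DESeq2 Wald test and 4 with the replicate block. With the epithelium covariate Col8a2 passed as well. With 1 library left out the number was 3 to 4. The cause of these changes was not tested. With the replicate block the counts within a sex were 15 higher and 20 lower in females and 17 higher and 12 lower in males. In the other comparisons the replicate block changed no call but those named in the report. The summed share of counts was 0.817% in the bladder and 0.867% in the urethra without Col1a1, Col1a2 and Col3a1, and 0.916% and 0.798% as a share of summed CPM per kb. Without a filter, 63.8% rather than 42.5% of all genes called between sexes in the bladder were higher in males. Genes under about 1 CPM in a group, such as Col28a1, Col4a3, Lair1, Tll2 and Pcolce2, rest on few counts, which limits their precision.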
